A study of Mus musculus with 6 samples.

Results

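Condensin and cohesin are ring-shaped complexes that fold and hold chromosomes. Each ring is built on a pair of SMC ATPases (structural maintenance of chromosomes) closed by a kleisin subunit. Condensin I and condensin II share SMC2 and SMC4 and differ in their other subunits, which are the kleisins NCAPH and NCAPH2 and the HEAT-repeat proteins NCAPD2 and NCAPG or NCAPD3 and NCAPG2. Both compact chromosomes for mitosis, and condensin II is nuclear throughout the cell cycle. Cohesin, built on SMC1A, SMC3 and the kleisin RAD21, holds sister chromatids together from replication until anaphase and forms chromatin loops in interphase.

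The 10 genes described were a list of names, drawn up with earlier results of these data known: Smc2, Smc4, Ncapd2, Ncapd3, Ncapg, Ncapg2, Ncaph, Ncaph2, Smc3 and Rad21. A gene was measured where a probe set was paired with exactly 1 gene symbol, which held for 9 of the 10 genes, each with 1 probe set, among 16797 genes tested. Smc2 had no such probe set here, so 7 of 8 condensin genes and both cohesin genes could be described.

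RNA of NIH3T3 cells (Normal), an immortalized line of mouse fibroblasts, was measured on 3 arrays of cells without Forskolin (N) and 3 arrays of cells treated with Forskolin (FSK) (NF). FSK activates adenylate cyclase and thereby PKA, and the comparison asks how the transcripts of low-glucose cells differ when PKA is activated. All cells were plated in 25 mM glucose, moved after 16 h to 1 mM glucose and grown for 72 h, with 10 μM FSK added for NF at 24 h and again at 48 h. The study states that at 72 h the glucose of the medium was used up, with or without FSK. The replicates of each group are called biological in the labels, all cells are of 1 line, and N cells were given the vehicle DMSO according to the legend of the study's workflow, although the labels name none. The values are log2 expression, and a log2 change is the mean of NF minus the mean of N.

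Of the fibroblast markers, 9 of 10 were measured, with group means between 5.53 and 12.57, while the 12 measured epithelial, immune and endothelial markers had group means between 2.34 and 3.92. Col3a1, a fibrillar collagen, was the 1 marker of these lists that changed (log2 change 1.33, limma adjusted p = 0.0157). N replicate 1 stood apart. It was lower than N replicates 2 and 3 averaged by a median of 0.49 log2 units (difference -0.49) over the 5189 probe sets with a mean log2 value between 5 and 8. By this measure N replicates 2 and 3 differed from the rest of their group, N replicate 1 included, by 0.13 and 0.36. Each NF array differed from its group by between -0.05 and 0.04. N replicate 1 was also the lowest N array for 8 of the 9 members, all but Ncapd3. Values without this array are therefore given beside those of the members, and for some of the other genes.

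FSK-treated cells had higher transcript levels of 4 condensin genes, which were all 3 subunits found in condensin I only and 1 of the 3 found in condensin II only. Of the 9 measured members, 4 rose (Ncaph, Ncapd2, Ncapg and Ncapd3), 0 fell and 5 did not pass the test (limma, Benjamini-Hochberg adjusted p under 0.05). Directions follow the labels of the arrays, and the study describes genes of the cell cycle as repressed in this comparison, which is opposite to the direction of these members. The reason was not tested. At an unadjusted p under 0.05, 8 members were higher in NF and 0 lower. Over all 16797 genes, 1.83% were called higher by the adjusted threshold and 8.33% by the unadjusted one. All 9 members had a higher mean in NF, with a median log2 change of 0.61, beside -0.03 over all genes tested. Without probe sets of a mean under 3.7, 8307 genes were left, among them all 9 members, with a median of 0.09. In that setting 359 genes, 4 members among them, were called higher by the adjusted threshold. By the unadjusted one 1093 genes were higher, 7 members among them. In 8 members every NF array lay above every N array, which was the case in 10.5% of all genes. Citing earlier work, the study names inhibition of the cell cycle and an arrest of proliferation as responses of Normal cells to FSK. These are bulk samples, so a larger share of dividing cells and more mRNA per cell cannot be told apart. Cell division was not measured in these data.

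**Figure D1:**
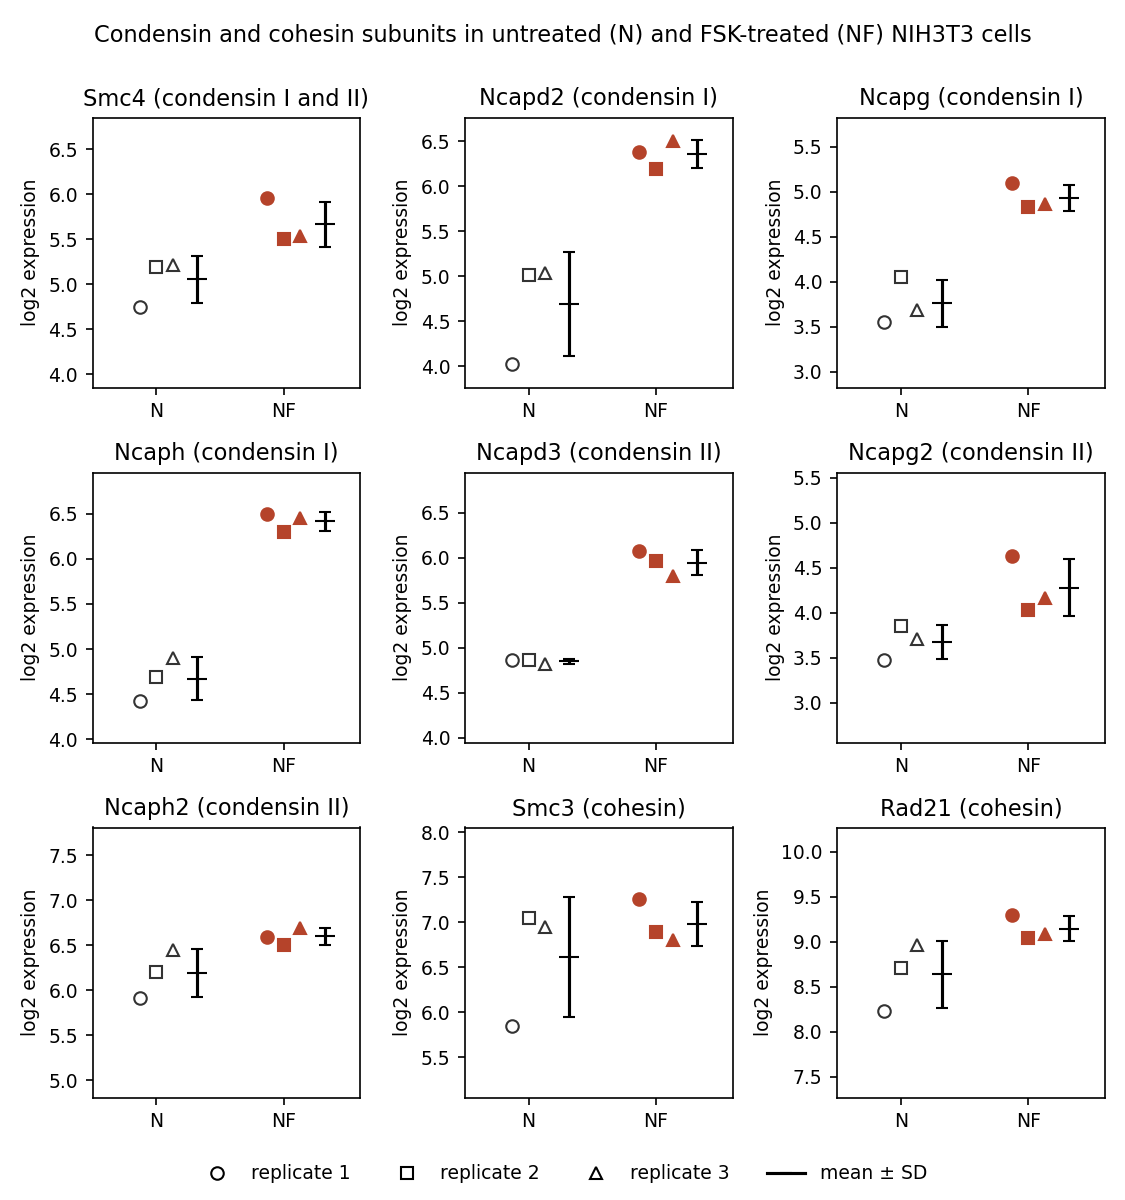
Log2 expression (vertical axis, each panel spanning the same range of 3 log2 units) of the 9 measured subunits in NIH3T3 cells without FSK (N, open symbols) and with FSK (NF, filled symbols), with 1 point per array, the shape giving the replicate number and a bar the mean ± SD (n = 3). The groups overlap for Smc3 and in no other panel, and N replicate 1 is the lowest N point in all panels but that of Ncapd3.

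Ncaph, the kleisin that closes the condensin I ring, had the largest change of the members (probe set 10487340). Its log2 expression was 4.42, 4.69 and 4.90 in N replicates 1, 2 and 3, and 6.50, 6.30 and 6.45 in NF replicates 1, 2 and 3. The means were 4.67 ± 0.24 (SD, n = 3) and 6.42 ± 0.11 (SD, n = 3), 3.36-fold higher in NF (log2 change 1.75, standard error 0.16, limma adjusted p = 0.00562). The lowest NF array lay well above the highest N array, and the change was 1.62 (standard error 0.13) without N replicate 1.

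Ncapd2, a HEAT-repeat subunit of condensin I, was 4.03, 5.02 and 5.04 in the N arrays and 6.39, 6.20 and 6.50 in the NF arrays (probe set 10547943). N replicate 1 was far below the other N arrays, which nearly coincided. The mean rose from 4.70 ± 0.58 (SD, n = 3) to 6.36 ± 0.15 (SD, n = 3), 3.17-fold (log2 change 1.66, standard error 0.27, limma adjusted p = 0.0243). Without N replicate 1 the log2 change of Ncapd2 was 1.33 (standard error 0.13, limma adjusted p = 0.00178), so the array raised both the change and its error.

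Ncapg, the other HEAT-repeat subunit of condensin I, was 3.55, 4.05 and 3.68 in N and 5.10, 4.83 and 4.86 in NF (probe set 10521731). It rose 2.25-fold (log2 change 1.17, standard error 0.17, limma adjusted p = 0.0166). The N mean of 3.76 is close to 3.7, the median of all probe sets' means, where array signals are dim and changes tend to be understated. Ncapg was 1.06 higher on the log2 scale (standard error 0.16) without N replicate 1.

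Among the subunits particular to condensin II, Ncapd3 alone passed the test. Its log2 expression was 4.86, 4.86 and 4.82 in N and 6.07, 5.96 and 5.79 in NF (probe set 10583952), and the N arrays spanned less than those of any other member (SD 0.03, n = 3). Ncapd3 rose 2.14-fold (log2 change 1.10, standard error 0.13, limma adjusted p = 0.00939), and by 1.11 (standard error 0.13) without N replicate 1. It was thus the member whose change depended least on that array.

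The other condensin II subunits moved less. Ncapg2, a HEAT-repeat subunit, was 3.48, 3.85 and 3.71 in N and 4.64, 4.03 and 4.17 in NF (probe set 10399087; log2 change 0.60, 95% interval 0.17 to 1.03, limma adjusted p = 0.188). NF replicate 1 was well above the other NF arrays, and these were close to the highest N array. The log2 change of Ncapg2 was 0.50 without N replicate 1 (95% interval 0.08 to 0.91). The N mean of Ncapg2, 3.68, lay just below 3.7, so its signal was dim as well and its change may be understated. The kleisin Ncaph2 was 5.92, 6.20 and 6.45 in N and 6.59, 6.51 and 6.70 in NF (probe set 10426225; log2 change 0.41, 95% interval 0.04 to 0.78, limma adjusted p = 0.317). The highest N array and the lowest NF array of Ncaph2 nearly met, and without N replicate 1 the change was 0.27 with an interval that took in 0 (95% interval -0.03 to 0.58).

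Smc4, the ATPase common to both condensins, was 4.75, 5.19 and 5.22 in N and 5.95, 5.51 and 5.54 in NF (probe set 10492558). Its log2 change was 0.61 (95% interval 0.18 to 1.04, limma adjusted p = 0.171), and 0.46 without N replicate 1 (95% interval 0.10 to 0.82). The groups did not overlap, but N replicate 1 was low and NF replicate 1 high against their groups.

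Of the cohesin genes neither passed. Rad21, the kleisin that separase cuts at anaphase, was 8.24, 8.71 and 8.96 in N and 9.30, 9.04 and 9.09 in NF (probe set 10428561), with a log2 change of 0.51 (95% interval 0.05 to 0.96, limma adjusted p = 0.306). Smc3, a cohesin ATPase, was 5.84, 7.04 and 6.94 in N and 7.26, 6.89 and 6.80 in NF (probe set 10463951; log2 change 0.37, 95% interval -0.34 to 1.09, limma adjusted p = 0.690). N replicates 2 and 3 of Smc3 lay within the range of the NF arrays. Without N replicate 1 the log2 change of Smc3 was -0.01 (95% interval -0.37 to 0.35), and that of Rad21 was 0.31 (95% interval -0.01 to 0.63).

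**Figure D2:**
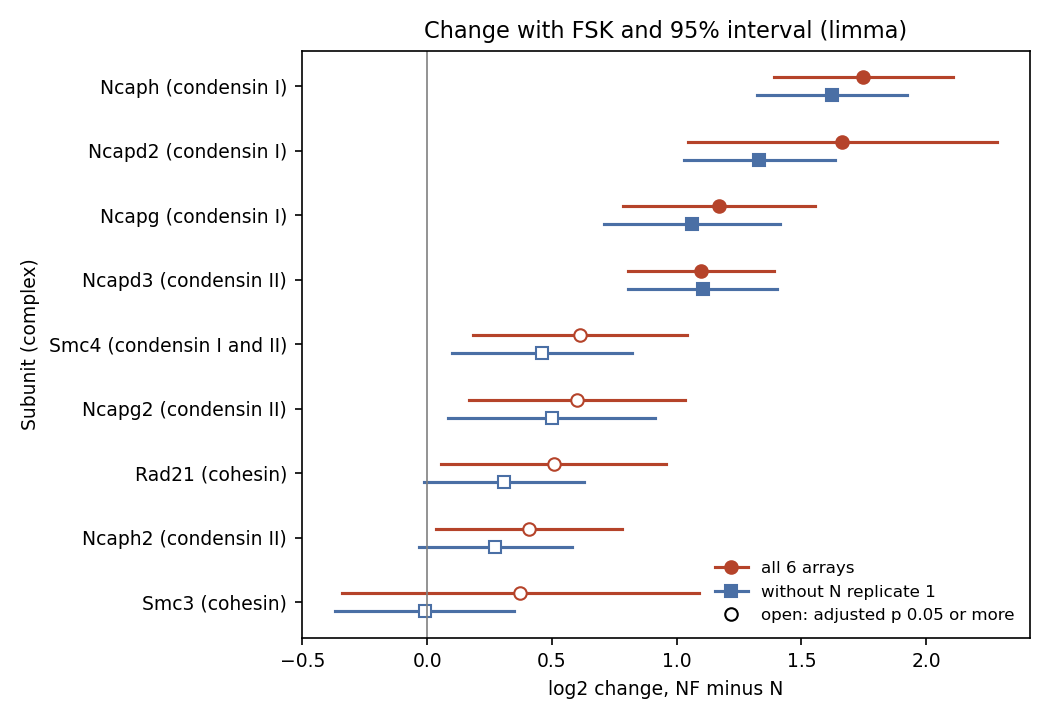
Log2 change of each measured subunit (horizontal axis, NF minus N) with its 95% interval from limma, with all 6 arrays (circles) and without N replicate 1 (squares), ordered by size. Filled symbols have an adjusted p under 0.05. The 4 members that rose lie between 1.10 and 1.75 with all arrays and above 1 in both settings, and Smc3 lies at -0.01 without N replicate 1.

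Without N replicate 1, the same 4 members rose, where 2.93% of all genes were called higher. Leaving out other arrays ended some calls. Ncapg lost its call without N replicate 3 (limma adjusted p = 0.0595) and Ncapd2 without NF replicate 2 (limma adjusted p = 0.0596). Without NF replicate 1, and again without NF replicate 3, 0 members passed limma's adjusted test, and 6 of 9 had an unadjusted p under 0.05 with a higher mean in NF each time. Of all 16797 genes, 950 and 941 were higher at this unadjusted threshold. In these settings 1 and 2 of all genes passed the adjusted test, Ncaph had a limma adjusted p of 0.0598 and 0.0607, and its log2 change was 1.70 and 1.73. In a fit with replicate numbers as a block, Ncaph and Ncapd3 rose and the other members did not pass. Of all 16797 genes, 63 were called higher in that fit.

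Each condensin I subunit was compared with its counterpart in condensin II by their difference within each array, which asks whether subunits of the one complex changed more than those of the other. For the kleisins, Ncaph minus Ncaph2 was -1.50, -1.51 and -1.55 in N and -0.09, -0.21 and -0.24 in NF, so that Ncaph changed by 1.34 more than Ncaph2 on the log2 scale. The spread within groups was small beside this (SD 0.03 in N and 0.08 in NF, n = 3), and N replicate 1 did not stand apart. For Ncapg minus Ncapg2 the values were 0.07, 0.20 and -0.03 in N and 0.46, 0.80 and 0.69 in NF, a difference between the changes of 0.57. Both of these genes were dim in N (means 3.76 for Ncapg and 3.68 for Ncapg2), so either change may be understated. For Ncapd2 minus Ncapd3 the values were -0.83, 0.15 and 0.22 in N and 0.31, 0.23 and 0.70 in NF, likewise a difference of 0.57. This last difference rested on N replicate 1, without which it was 0.23, and N replicate 3 and NF replicate 2 were almost equal. In all 3 pairs the groups did not overlap, with a two-sided exact permutation p of 0.1 in each (0.1 after adjustment over the 3 pairs), the smallest that 3 arrays against 3 allow. This permutation test therefore cannot reach a p under 0.05 for a single pair of subunits, whatever the size of the difference. How often the difference of other gene pairs separates the groups was not counted.

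**Figure D3:**
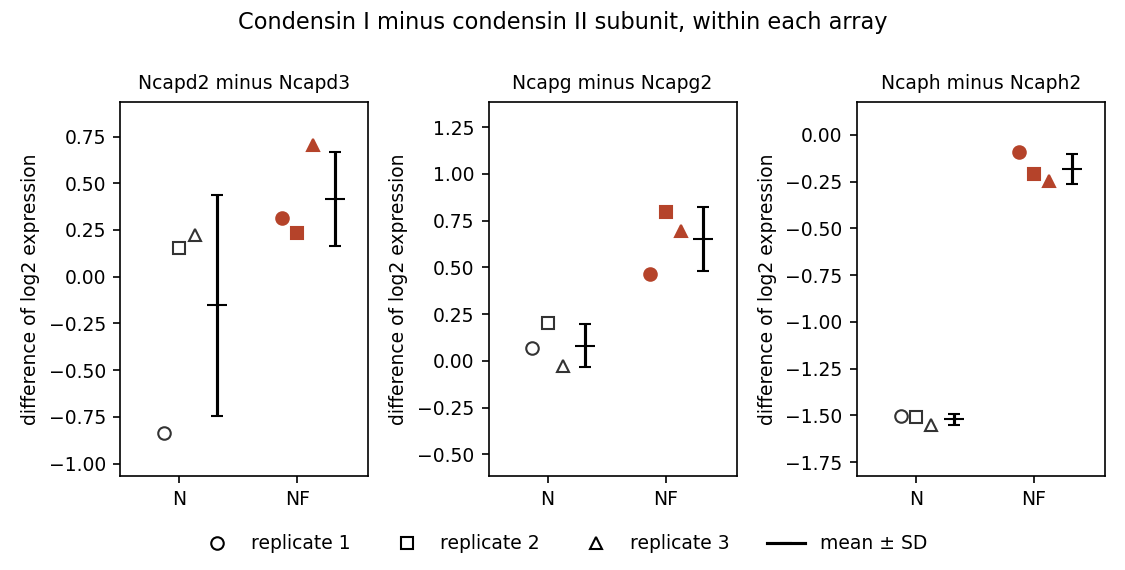
Difference of log2 expression within each array (vertical axis, each panel spanning 2 log2 units) between the condensin I and the condensin II subunit of each pair, in N (open) and NF (filled), with 1 point per array, the shape giving the replicate number, and a bar for the mean ± SD (n = 3). The kleisin pair separates most, from a mean of -1.52 in N to -0.18 in NF, and in the pair of Ncapd2 and Ncapd3 N replicate 1 lies far below the other points. The height of a point does not compare the amounts of both transcripts, since probe sets differ in response.

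Promoters are shown for the pairs of kleisins and of G subunits and for Ncapd2, since these members differed in the size of their change and their start sites differ in motifs known from genes of the cell cycle and from cAMP signalling. Such motifs are the CRE, bound by CREB, and the CHR, the CCAAT box and the E2F site of genes expressed from S phase to mitosis. RefSeq sequences (GRCm38.p6) of 250 bases before to 50 bases after the start site were found for 8 of the 10 genes (all but Smc4 and Rad21). The stretches printed here run from 200 bases before the start site to 30 bases after it, 5′ to 3′ on the strand of the gene, with motif matches on either strand in capitals. They are chr2:127133925-127134154 (minus strand) for Ncaph, chr15:89355519-89355748 (plus) for Ncaph2, chr6:125191557-125191786 (minus) for Ncapd2, chr5:45669725-45669954 (plus) for Ncapg and chr12:116405236-116405465 (plus) for Ncapg2.
Ncaph: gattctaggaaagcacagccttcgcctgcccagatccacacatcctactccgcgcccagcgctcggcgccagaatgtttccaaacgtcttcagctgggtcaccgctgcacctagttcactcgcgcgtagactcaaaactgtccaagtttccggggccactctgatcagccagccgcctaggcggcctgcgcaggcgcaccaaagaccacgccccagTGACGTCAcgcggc
Ncaph2: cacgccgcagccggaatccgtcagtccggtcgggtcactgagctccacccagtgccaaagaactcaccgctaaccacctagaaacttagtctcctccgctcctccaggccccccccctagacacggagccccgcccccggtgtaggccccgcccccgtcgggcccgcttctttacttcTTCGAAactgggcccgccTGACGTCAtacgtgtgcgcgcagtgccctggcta
Ncapd2: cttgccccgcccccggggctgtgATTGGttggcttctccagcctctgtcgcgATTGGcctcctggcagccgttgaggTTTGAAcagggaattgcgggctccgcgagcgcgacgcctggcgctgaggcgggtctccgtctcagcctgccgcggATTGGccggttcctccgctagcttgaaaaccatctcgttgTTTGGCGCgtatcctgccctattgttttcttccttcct
Ncapg: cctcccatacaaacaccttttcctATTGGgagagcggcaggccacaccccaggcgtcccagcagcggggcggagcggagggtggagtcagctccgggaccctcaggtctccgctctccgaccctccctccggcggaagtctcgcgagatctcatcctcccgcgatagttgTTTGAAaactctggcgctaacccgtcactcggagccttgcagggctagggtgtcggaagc
Ncapg2: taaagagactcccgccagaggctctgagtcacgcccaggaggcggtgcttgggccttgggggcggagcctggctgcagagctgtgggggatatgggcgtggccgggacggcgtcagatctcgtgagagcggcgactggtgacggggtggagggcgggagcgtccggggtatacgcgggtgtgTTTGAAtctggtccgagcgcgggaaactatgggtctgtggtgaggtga

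The palindromic CRE TGACGTCA was found in both kleisin promoters, at bases 17 to 24 of Ncaph and spanning the start site of Ncaph2 (bases -4 to 4, with 1 the start base and no base 0). It was in none of the other 6 members with a promoter, and in 1.79% of the 32851 RefSeq windows of this length. The kleisin that rose and the kleisin that did not pass the test therefore both carry these letters. The CHR TTTGAA was found in Ncapd2 (bases -123 to -118), Ncapg (-30 to -25), Ncapg2 (-18 to -13), Smc2 (2 matches) and the more downstream of 2 windows of Ncapd3 (-249 to -244), and in 17.9% of all windows. Its variant TTCGAA was found in Ncaph2 (-22 to -17) and in 1.56% of all windows. CCAAT was found 3 times in Ncapd2 and once each in Ncapg and Smc2, and in 37.4% of all windows. An E2F site, searched as TTTGGCGC or TTTCGCGC only, was found in Ncapd2 (-8 to -1) and in 0.813% of all windows. Other forms of the E2F site were not searched and are not in capitals above. A member without a match, such as Ncapg2, may therefore hold one, and the share of windows covers the searched letters only. The Smc3 window and the upstream window of Ncapd3 held none of these letters. All motifs were searched on both strands, and no match overlapped another. A match describes the letters and does not show that a factor binds there.

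Of 16 measured regulators of cohesin (17 listed), 5 rose, 1 fell and 10 did not pass the test, with a median log2 change of 0.33. Those that rose were the shugoshins Sgo2a (1.37) and Sgo1 (0.94), which protect cohesin at centromeres, Cdca5 (1.31), the sororin that keeps cohesin on replicated chromatids, Chtf18 (0.91), of a clamp loader that helps to establish cohesion, and Pttg1 (0.86), the securin that holds separase inactive. Cdca5 was 4.18, 4.62 and 4.72 in N and 5.76, 5.87 and 5.83 in NF (limma adjusted p = 0.0118), and its groups were far apart. Esco1, an acetyltransferase of SMC3, fell by 0.62 on the log2 scale (limma adjusted p = 0.0493), where 0.720% of all genes were called lower. Its second probe set had a log2 change of -0.14 (limma adjusted p = 0.805), so the probe sets of Esco1 disagree, and the first did not pass in 10 of 14 alternative settings.

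The SMC3 acetyltransferase Esco2 (log2 change 0.54, limma adjusted p = 0.138), the SMC3 deacetylase Hdac8 (-0.65, adjusted p = 0.223) and separase, Espl1 (0.45, adjusted p = 0.261), did not pass limma's test with all arrays. Without N replicate 1, Esco2 rose (log2 change 0.64, limma adjusted p = 0.0396) and Hdac8 fell (-0.83, limma adjusted p = 0.0402). The loaders Nipbl (0.10) and Mau2 (0.19) and the release factors Wapl (-0.04), Pds5a (0.03) and Pds5b (0.10), which act on cohesin throughout interphase, had adjusted p-values of 0.829 or more in limma. Without N replicate 1 the direction turned in 4 of these 5 genes (Nipbl -0.17, Mau2 -0.13, Pds5a -0.17 and Pds5b -0.09), Wapl had a change of -0.26, and 0 of the 5 passed limma's adjusted or unadjusted test. The median over all 16 regulators was then 0.20.

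Of the 6 other cohesin subunits measured (7 listed), 0 passed limma's adjusted test and 0 were higher at an unadjusted p under 0.05. Their median log2 change was -0.10. Smc1a, the partner ATPase of SMC3, was 6.23, 7.38 and 7.42 in N and 7.57, 7.51 and 7.58 in NF, with a log2 change of 0.54 (limma adjusted p = 0.513) that was 0.15 without N replicate 1. The meiotic kleisins Rec8 (-0.18, adjusted p = 0.617) and Rad21l (-0.15, adjusted p = 0.697) had group means between 2.25 and 2.98, below 3.7. Of 7 measured genes of the SMC5/6 complex and Smchd1 (8 listed), 0 passed limma's adjusted test, with 1 higher at an unadjusted p under 0.05. That gene, Nsmce4a, a subunit of SMC5/6, had a log2 change of 0.91 (limma adjusted p = 0.190). Without N replicate 1 the change of Nsmce4a was 0.55 (limma adjusted p = 0.0520). The ATPases Smc6 and Smc5 had log2 changes of -0.38 and -0.24 with all arrays (limma adjusted p = 0.462 and 0.593).

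Of 6 proteins that act beside condensin on mitotic chromosomes, the genes of 4 rose and 2 did not pass (median log2 change 1.20). Top2a, which untangles DNA, was 5.11, 5.73 and 5.47 in N and 7.72, 7.39 and 7.66 in NF (log2 change 2.15, limma adjusted p = 0.00562). Kif4, a chromokinesin that works with condensin, rose by 1.67 (limma adjusted p = 0.00716), Mki67, which coats mitotic chromosomes, by 1.61 and Cdca2, which brings a phosphatase to chromosomes at mitotic exit, by 0.79. A second, dim probe set of Top2a had a log2 change of -0.47 (adjusted p = 0.462). Top2b, the topoisomerase also present in resting cells, had a log2 change of 0.21 (adjusted p = 0.704) and Mcph1, which restrains condensin II, one of 0.13 (adjusted p = 0.755). With replicate numbers as a block, 3 genes of these related lists rose in place of 9, and 0 did when either NF replicate 1 or NF replicate 3 was left out.

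**Figure D4:**
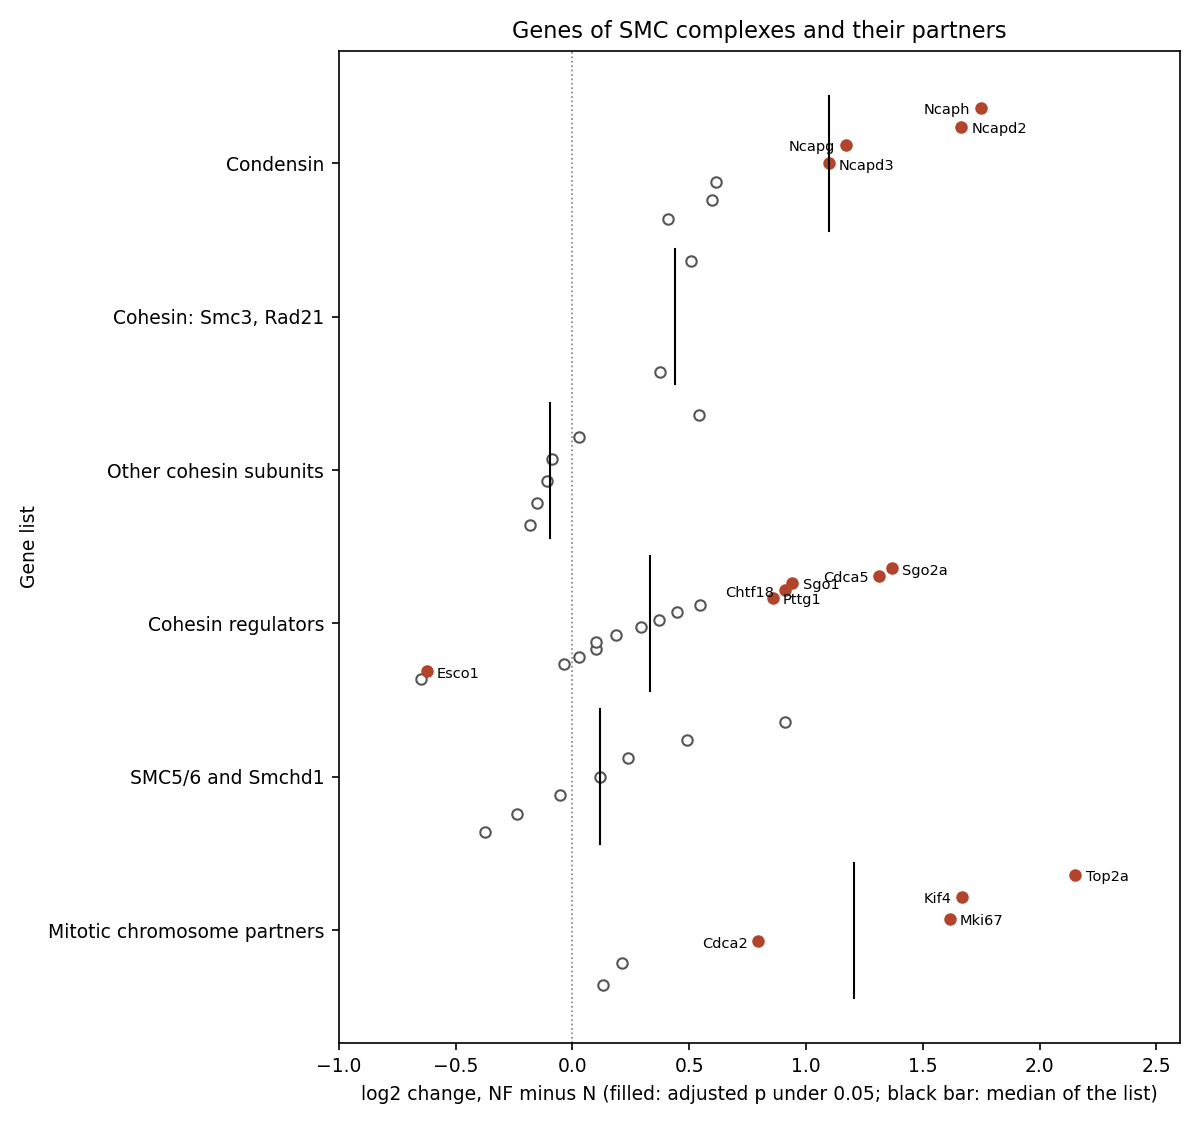
Log2 change (horizontal axis, NF minus N) of the condensin and cohesin members and of 4 related lists, with 1 point per gene, filled and named where the limma adjusted p was under 0.05, and a black bar at the median of each list. Points of a list are spread vertically for legibility. The condensin genes and the partners on mitotic chromosomes have medians of 1.10 and 1.20, and the other cohesin subunits one of -0.10.

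The members differed in how closely they followed one another over the 6 arrays. The mean profile of the 7 condensin subunits, each scaled to unit SD, was -1.31, -0.59 and -0.56 in N and 1.13, 0.57 and 0.76 in NF. Pearson's r with it was between 0.89 and 0.98 for these subunits, which are part of it, 0.91 for Rad21 and 0.68 for Smc3. Among 4822 other genes with an SD over the arrays of 0.3 or more, the 10 with the most similar profile were Diaph3, Bub1b, Sgpp1, Glis3, Fgfr1, Chaf1a, Nasp, Prc1, Mki67 and Kif2c, with r between 0.991 and 0.999. Their log2 changes ranged from 0.69 for Nasp, which did not pass the test (limma adjusted p = 0.0736), to 2.42 for Kif2c. The 6 points of each r share the same arrays and the group difference, so these values are a description only.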

How the data were processed

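RNA of 6 samples of NIH3T3 cells (3 N, 3 NF) was measured on Affymetrix gene arrays. The deposited values are log2 expression values, which the authors made with RMA (per the labels' processing notes and the study's methods, in the R/Bioconductor package oligo, version not given in the sources used here). RMA brings the arrays towards a common distribution and can hide a change of all transcripts together, but the deposited distributions were not equal (SD over tested probe sets 2.19 in N replicate 1 and 2.37 to 2.42 in the others). Which arrays were normalized together is not given, and the authors had removed probe sets with no Entrez gene.

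Of 22035 probe sets, the 18197 paired with 1 symbol (16797 genes) were tested, 1260 with several symbols and 2578 not listed were left out, and 0 columns lacked a sample. The NF minus N difference was fitted by limma 3.58.1 under R 4.3.3 (lmFit, eBayes, no trend, not robust), with Benjamini-Hochberg adjustment across these 18197 probe sets. The probe set with the lowest p stands for a gene. The procedure was tested on simulated data. Paralog differences were tested by exact permutation. The members, lists and motifs were chosen with earlier results of these data known. Named genes are the members, the genes of each related list past the test with up to 3 of lowest p (the cohesin loaders and release factors were added after their values were seen), and the 10 genes of most similar profile. The number of arrays limits the precision. Alternatives were a replicate block, further quantile normalization, median centring, removal of probe sets with a mean under 3.7, the brightest probe set per gene, the trend and the robust option of limma, the methods' t-test and leaving out each array. The methods' t-test is the Student's t-test of the study's general statistics section, while the study analysed its arrays with limma.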

Additional observations from a re-analysis of the deposited data

How the results depend on the processing

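With all 6 arrays 4 members rose. This count was 2 with the replicate number as a block, 0 by the methods' t-test after Benjamini-Hochberg adjustment, and between 0 and 4 with an array left out. The other 6 settings gave 4. By the methods' t-test 6 members were higher at an unadjusted p under 0.05, as were 1000 of all 16797 genes. All genes past the test numbered 428 (307 higher, 121 lower), against 80 with the replicate block, 860 after further quantile normalization (495 higher, 365 lower), 1 by the methods' t-test and between 1 and 922 with an array left out. In the related lists 9 genes rose, against 3 with the block, 0 by the methods' t-test (adjusted) and between 0 and 10 with an array left out. There 1 gene fell, against 2 after quantile normalization, 0 with the block, without dim probe sets, with limma's trend or robust option and by the methods' t-test, and between 0 and 2 with an array left out. The cause of these differences was not tested. Smc3 was the 1 member that turned direction, with log2 changes between -0.0101 (without N replicate 1) and 0.59 (without N replicate 2) when an array was left out. The log2 change over all alternatives was between 1.62 and 1.86 for Ncaph, 1.33 and 1.84 for Ncapd2, 1.06 and 1.32 for Ncapg and 0.96 and 1.17 for Ncapd3. The deviations of same-numbered arrays from their group means correlated at -0.07, -0.08 and -0.07. These values cannot decide whether same-numbered arrays were paired, since N replicate 1 stood apart from its group.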

Other observations

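N replicate 1 was low by very different amounts in different genes of these complexes. Against the mean of N replicates 2 and 3 it differed by -1.42 for Smchd1, -1.32 for Ctcf, -1.17 for Smc1a, -1.15 for Smc3 and -1.08 for Nsmce4a on the log2 scale, but by -0.30 for Ncapg2 and 0.03 for Ncapd3, beside a median of -0.49 over probe sets of moderate expression. The second probe set of Smchd1 differed by -0.32. The log2 change of Ctcf turned from 0.37 with all arrays to -0.07 without N replicate 1 (limma adjusted p = 0.722 and 0.897). These genes were chosen after their values were seen, and what sets the amounts apart was not tested.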
